A study of Mus musculus with 2 samples.

Results

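The axon guidance genes of the mouse heart were described here across its cell types: the semaphorins and their plexin receptors, the Slits and Robos, the ephrins and Eph receptors, and the netrins and Unc5 receptors. Genes were members when their symbol belonged to one of these families, and 66 of the 32589 genes in the files did. Single-nucleus RNA-seq (snRNA-seq) had been run on hearts of male C57BL/6 mice that were 8 weeks old when treatment began. The PD-1 inhibitor library came from mice given an antibody to mouse PD-1, an immune checkpoint receptor of T cells, by intraperitoneal injection at 5 mg/kg on days 1 and 14 of a cycle of 28 days. The control library came from mice given PBS at the same times. There was 1 library per group and the number of hearts behind each is not given, so differences between the libraries have no replicate check, and hearts, dissection and treatment cannot be told apart. The question was which heart cells carried these genes and whether their levels differed under PD-1 inhibition.

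Guidance cues were first described as signals that attract or repel growing axons, and the same ligand and receptor pairs steer vessels and heart tissue. Class 3 semaphorins are secreted and act through plexins, mostly with a neuropilin as co-receptor, whereas the other classes are largely bound to membranes. Slits are secreted ligands of Robo receptors, ephrins bind Eph receptors on touching cells with signals in both directions, and netrins act through Dcc, neogenin and Unc5 receptors. In the vasculature, ephrin-B2 and its receptor EphB4 are known as an arterial and venous pair.

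After filters, 9522 control nuclei with 12103951 UMIs (unique molecular identifiers, counted RNA molecules) and 7644 PD-1 inhibitor nuclei with 10290085 UMIs were kept, with medians of 1012 and 1055 UMIs per nucleus. Members held 38103 of the control UMIs (0.315%) and 34334 of the PD-1 inhibitor UMIs (0.334%). Nuclei were sorted into 10 types by marker genes: endothelial cells (ECs; 2802 control and 2499 PD-1 inhibitor nuclei), fibroblasts (2476 and 1969), cardiomyocytes (1290 and 1103), mononuclear phagocytes (MPs; 1257 and 882), mural cells (588 and 415), mesothelial cells (478 and 462), T cells (240 and 195), B cells (175 and 80), adipocytes (154 and 16) and glial cells (32 and 10). The type names mean "like" that cell type, since they were rebuilt from markers. Members were left out of the genes used for clustering, so their levels had no part in setting the clusters. A level is given as UMIs per 1000000 UMIs of the same nuclei (CPM), with an exact Poisson interval at 95% in brackets that covers counting error only. CPM is not divided by gene length, so each gene is compared between cell types and not with other genes. The libraries shared 48 barcodes.

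Of the 66 members, 50 had at least 100 UMIs over all kept nuclei and 44 had at least 100 UMIs in 1 cell type or more. Among the 50, 44 had their highest CPM in the same type in both libraries, over the 9 types with at least 100 nuclei. For 24 members the intervals of the leading type and the next type did not meet in either library. By the mean of both libraries, mesothelial cells led for 14 members, ECs for 13, fibroblasts for 7, mural cells for 6, cardiomyocytes and B cells for 3 each, T cells and adipocytes for 2 each and MPs for 0. Neither these counts nor those of shared or separated leading types were made over all genes. They therefore do not set the families apart from other genes. Epha8 and Ntn5 had 0 UMIs in both libraries. The other members under 100 UMIs were Sema4f, Sema4g, Sema5b, Plxnb3, Slit1, Robo3, Efna3, Efna4, Epha1, Epha5, Epha10, Ephb2, Ntn3 and Unc5d, whose level could not be resolved at this depth.

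**Figure D1:**
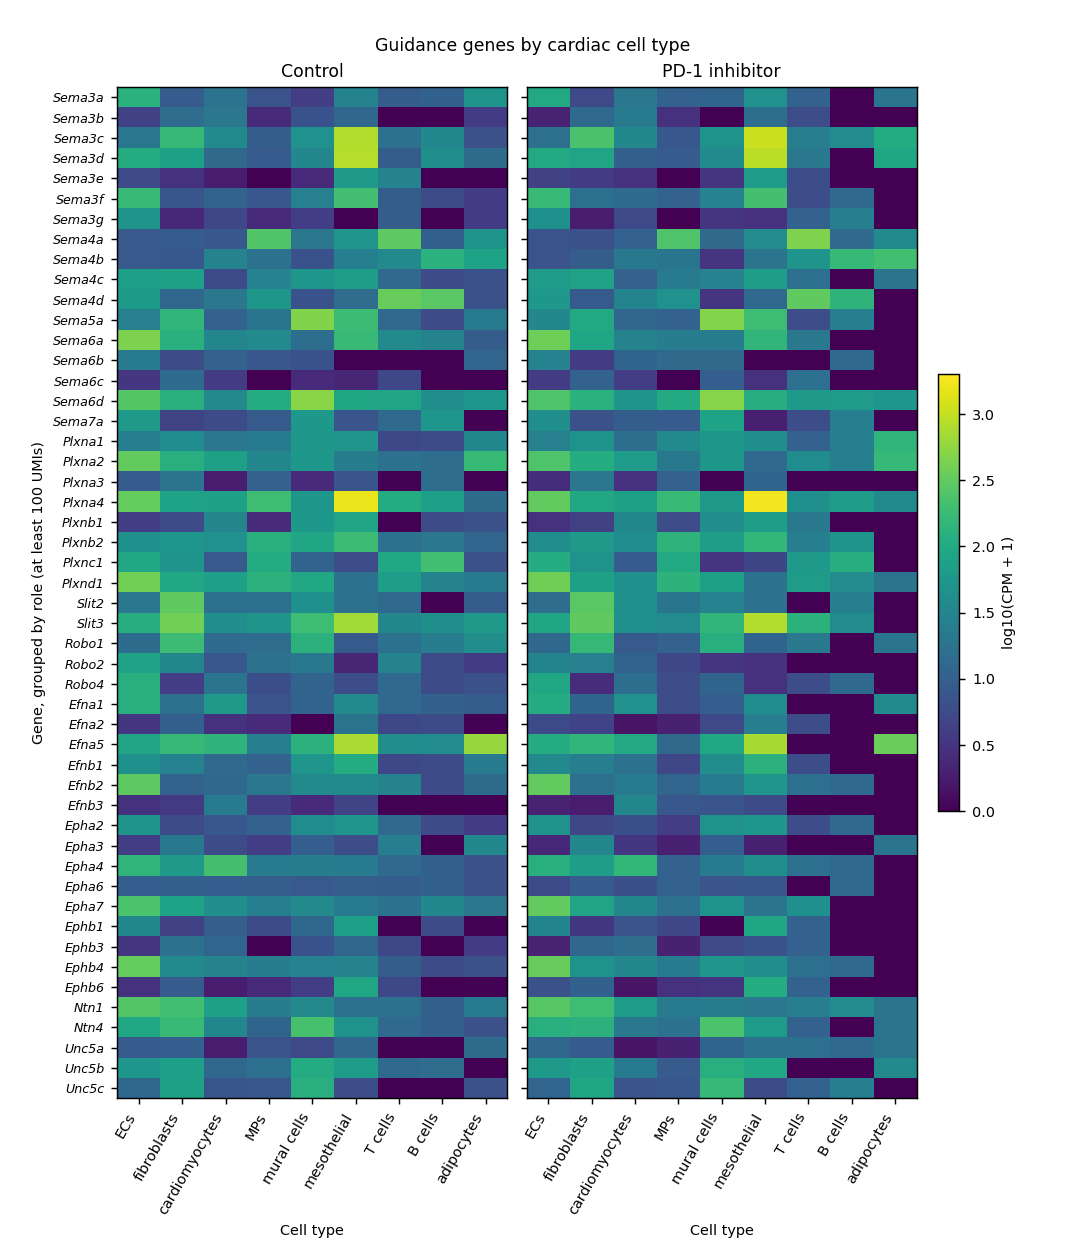
Heat map of the level of the 50 members with at least 100 UMIs, as log10(CPM + 1), by cell type (columns), with the control library on the left and the PD-1 inhibitor library on the right. Rows are grouped by role. Plxna4, Sema3c, Sema3d, Slit3 and Efna5 are brightest in the mesothelial column of both libraries, and the pattern of leading types is alike in both, with 44 of 50 members led by the same type.

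Promoter sequences are shown for the Slit2 ligand and the 3 Robo receptors above 100 UMIs, because these 4 genes were led by fibroblasts or ECs and Robo2 gave the widest EC difference between the libraries. Each runs from 250 bases before to 50 bases after a RefSeq transcription start in build GRCm38.p6, 5′ to 3′ on the gene's own strand: Slit2 at chr5:47982905-47983204 (plus strand), Robo1 at chr16:72662899-72663198 (plus), Robo2 at chr16:74411776-74412075 (minus) and Robo4 at chr9:37401722-37402021 (plus). The only Robo1 start in the table lies inside the annotated gene (chr16:72308306-73046095, plus strand) and not at its 5′ end. Robo2 has 3 starts in the table, and the one nearest to the 5′ end of the annotated gene is shown. Capitals mark matches on either strand to an E-box (CAGNTG or CANCTG), an ETS core (CCGGAA or TTCCGG) or a TATA box (TATAAA or TTTATA). E-boxes were searched because E proteins such as TCF12, a factor the study examined, bind them, and ETS cores because ETS factors are widely used in ECs.
Slit2: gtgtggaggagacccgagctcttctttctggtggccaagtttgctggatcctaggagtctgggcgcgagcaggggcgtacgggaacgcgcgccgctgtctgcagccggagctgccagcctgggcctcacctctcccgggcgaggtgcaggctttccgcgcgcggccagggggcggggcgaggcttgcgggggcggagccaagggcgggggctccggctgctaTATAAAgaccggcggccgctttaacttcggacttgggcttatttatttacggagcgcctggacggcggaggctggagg
Robo1: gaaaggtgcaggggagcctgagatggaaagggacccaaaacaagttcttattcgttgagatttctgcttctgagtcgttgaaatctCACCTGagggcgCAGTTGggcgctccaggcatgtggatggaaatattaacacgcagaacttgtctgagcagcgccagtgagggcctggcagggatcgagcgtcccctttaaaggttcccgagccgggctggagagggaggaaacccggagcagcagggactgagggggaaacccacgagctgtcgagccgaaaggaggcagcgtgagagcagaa
Robo2: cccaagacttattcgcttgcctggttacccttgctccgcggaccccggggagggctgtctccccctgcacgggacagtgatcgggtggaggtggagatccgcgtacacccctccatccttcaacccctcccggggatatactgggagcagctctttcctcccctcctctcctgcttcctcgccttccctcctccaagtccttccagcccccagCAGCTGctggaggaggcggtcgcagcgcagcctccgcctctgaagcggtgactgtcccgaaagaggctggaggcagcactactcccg
Robo4: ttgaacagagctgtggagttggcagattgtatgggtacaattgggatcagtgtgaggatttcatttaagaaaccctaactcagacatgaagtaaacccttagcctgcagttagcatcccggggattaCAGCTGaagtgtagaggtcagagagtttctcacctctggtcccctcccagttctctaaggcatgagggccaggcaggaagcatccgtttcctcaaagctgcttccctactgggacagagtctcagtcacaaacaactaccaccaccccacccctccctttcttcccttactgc

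Slit2 held 1 TATA match, Robo1 2 E-box matches, and Robo2 and Robo4 1 E-box match each, with 0 overlaps between motifs. Over all 32851 promoters of the same length, 51.4% held an E-box, 14.9% an ETS core and 13.6% a TATA match. Among the 73 promoters of 57 members in the table, 29 (39.7%) held an E-box, 7 (9.59%) an ETS core and 2 (2.74%) a TATA match. These are matches of letters and not sites of binding.

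Class 3 semaphorins, the secreted class, were led by mesothelial cells, ECs and cardiomyocytes. Sema3c, a ligand known from outflow tract development, was at 827 CPM (765 to 893) in control nuclei and 1077 CPM (1015 to 1142) in PD-1 inhibitor nuclei in mesothelial cells, the cell layer of the epicardium. It was at 161 and 222 CPM in fibroblasts, the next type (in such pairs the control library is given first). Within fibroblasts, the cluster led by Cilp, Cd248 and Myoc stood at 323 CPM (287 to 363) and 403 CPM (364 to 445), and the larger cluster led by Rgs17, Fbn2 and Eya2 at 93.8 CPM (80.7 to 108) and 104 CPM (87.5 to 123), so the intervals of these clusters did not meet in either library. Sema3d, a close relative of Sema3c, was at 864 CPM (800.1 to 931) in control nuclei and 909.7 CPM (853 to 969.6) in PD-1 inhibitor nuclei in mesothelial cells, and lymphatic ECs came near it at 774 CPM (671 to 887) and 858 CPM (737 to 993). Both secreted ligands were therefore mainly mesothelial, and Sema3d had a lymphatic source as well. Sema3e, known as a ligand that binds plexin D1 directly, was mesothelial too but sparse, with 47 and 69 UMIs there. Sema3f, a neuropilin-2 ligand, was at 207 CPM (177 to 242) and 212 CPM (185 to 242) in mesothelial cells. In ECs as a whole it was at 172 CPM (158 to 188) and 168 CPM (154 to 184). The intervals of these types overlapped in the control library and did not meet in the PD-1 inhibitor library. Inside the ECs, Sema3f was at 527 CPM (409 to 669) and 443 CPM (349.9 to 552) in the valve cluster against 131 CPM (114 to 151) and 115 CPM (99.7 to 132) in the endocardial one.

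Sema3a, known as a repellent of sympathetic axons in the heart, was an EC gene at 127 CPM (114 to 140.4) in control nuclei and 100.2 CPM (88.9 to 112) in PD-1 inhibitor nuclei. Its level was highest in lymphatic ECs, at 522 CPM (439 to 616) and 436 CPM (351 to 536), with 22.7 and 23.9 CPM in capillary ECs. Sema3g was highest in arterial ECs, at 986 CPM (776 to 1236) and 1005 CPM (789 to 1261), with 68.1 and 68.7 CPM in capillary and 3.75 and 9.59 CPM in lymphatic ECs. The arterial cluster was small, 63 control and 44 PD-1 inhibitor nuclei, and its 75 and 74 Sema3g UMIs gave intervals that overlapped. Sema3b was sparse outside glial cells, with 47 and 43 UMIs in cardiomyocytes.

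Of the 10 semaphorins of classes 4 to 7 with at least 100 UMIs, mural cells led for 3, ECs, fibroblasts and T cells for 2 each and B cells for 1. Sema6d, a ligand of class A plexins, was at 509 CPM (457 to 565) in control nuclei and 499 CPM (437 to 567) in PD-1 inhibitor nuclei in mural cells. Pericytes carried it, at 630.3 and 611 CPM, while smooth muscle had 9 and 0 UMIs. Sema5a, which carries thrombospondin repeats, was at 475 CPM (425 to 529.6) in control nuclei and 486 CPM (425 to 553) in PD-1 inhibitor nuclei in mural cells and at 181 and 189 CPM in mesothelial cells, the next type. Pericytes thus held both genes, and for Sema5a smooth muscle was at 322 CPM (237 to 428) and 525 CPM (383 to 702), against 517 CPM (458 to 581) and 477 CPM (410.1 to 551) in pericytes, so the smooth muscle interval lay below that of pericytes in the control library and overlapped it in the PD-1 inhibitor library. Sema6a, a transmembrane ligand of plexins A2 and A4, was an EC gene at 447 CPM (424 to 472) in control nuclei and 376 CPM (354 to 399) in PD-1 inhibitor nuclei, with lymphatic ECs at 958 and 805 CPM, capillary ECs at 586 and 581 CPM and endocardial ECs at 289 and 259 CPM. Sema7a, a lipid-anchored semaphorin, was high in capillary ECs at 156 CPM (132 to 183) and 149 CPM (122 to 182), against 7.22 and 3.43 CPM in endocardial ECs. The small arterial cluster came near capillary ECs, at 120 CPM as the mean of both libraries. Pericytes had 67.1 and 99.6 CPM.

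The class 4 genes are known from immune cells. Sema4a was at 298 CPM (233 to 376) and 458 CPM (369 to 562) in T cells and at 254 CPM (228 to 283) and 244 CPM (214 to 276) in MPs, so the intervals of these types overlapped in the control library and did not meet in the PD-1 inhibitor library. Sema4d (CD100), an activator of plexin B1, was at 339.6 CPM (270.1 to 422) and 309 CPM (237 to 396) in T cells and 286 CPM (218 to 368) and 139 CPM (69.2 to 248) in B cells. Sema4c was spread over fibroblasts (76.0 and 77.7 CPM), mesothelial cells (70.0 and 69.4 CPM) and capillary ECs (104 and 100.1 CPM). Sema4b reached 100 UMIs in cardiomyocytes only, at 29.0 and 20.5 CPM, although its CPM was higher in B cells (27 and 13 UMIs). Sema6b, with 64 and 80 UMIs in ECs, was a low EC gene. Sema6c had fewer than 100 UMIs in every type.

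Of the 8 plexins, the semaphorin receptors, with at least 100 UMIs, mesothelial cells led for 3 and ECs for 2, and fibroblasts, B cells and adipocytes for 1 each. Plxna4 was at 1585 CPM (1498 to 1676) in control nuclei and 1726 CPM (1647 to 1808) in PD-1 inhibitor nuclei in mesothelial cells and at 328 and 319 CPM in ECs, the next type. Lymphatic ECs had 511 CPM (428 to 604) and 264 CPM (199 to 343) of it, and these intervals did not meet. Plxnd1, the vascular plexin that binds Sema3e, was at 398 CPM (375 to 421) in control nuclei and 389 CPM (366 to 412) in PD-1 inhibitor nuclei in ECs, with 572 and 638 CPM in capillary and 135 and 259 CPM in lymphatic ECs. Plxna2, a receptor for class 6 semaphorins and, with neuropilins, for class 3, was at 325 CPM (305 to 346) and 248 CPM (230.5 to 267) in ECs and was highest in capillary ECs of the control library (509 CPM (465 to 556) and 384 CPM (338 to 434)). Mesothelial cells thus led for Plxna4 and ECs for Plxnd1 and Plxna2. Plxnb2 was at 182 and 154 CPM in mesothelial cells and 125 and 137 CPM in MPs. Plxnb1 had 82.7 and 70.3 CPM in mesothelial cells. Plxnc1, the receptor of Sema7a, was at 159.5 and 159 CPM in endocardial ECs against 10.3 and 17.9 CPM in capillary ECs, the reverse order of its ligand. By whole type it was at 106 and 99.5 CPM in MPs and highest in B cells at 200.3 CPM (144 to 271) and 113 CPM (51.9 to 215), from 42 and 9 UMIs. By the mean of both libraries, endocardial ECs and the dendritic cluster of MPs were slightly above B cells, at 159 and 172 CPM against 157 CPM. Plxna1 was spread, with 39.8 and 49.1 CPM in fibroblasts and 54.2 and 55.6 CPM in mural cells, and its lead in adipocytes rested on 12 and 8 UMIs. Plxna3 was low, with 52 and 48 UMIs in fibroblasts, its leading type.

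The neuropilins are shared with VEGF signalling. Nrp1 was at 1055 and 1119.9 CPM in ECs, and Nrp2 at 471 and 352 CPM. The log2 ratio of Nrp2 between the libraries was -0.42 (-0.54 to -0.30) in ECs and 0.56 (0.05 to 1.11) in mesothelial cells, where it had 47 and 92 UMIs.

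**Figure D2:**
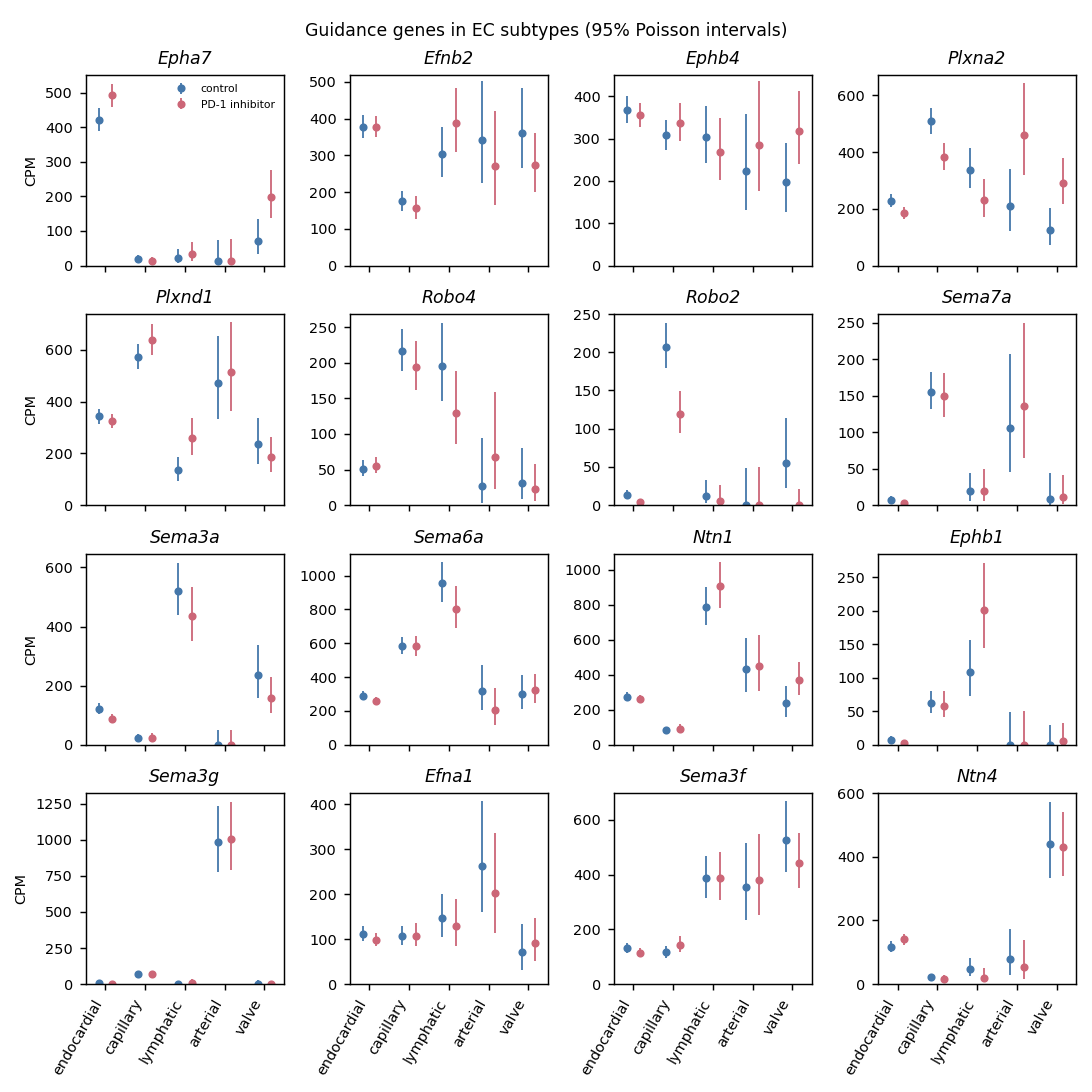
Levels (CPM, vertical axis, each panel with its own linear scale from 0) of 16 guidance genes in the 5 EC clusters, control in blue and PD-1 inhibitor in red, with 95% Poisson intervals that cover counting error only. Each EC cluster had members of its own among its high genes, such as Epha7 in endocardial, Robo2 in capillary, Sema3a in lymphatic, Sema3g in arterial and Ntn4 in valve ECs. Sema7a was high in both capillary and arterial ECs. Robo2 in capillary ECs is lower in the PD-1 inhibitor library, 119.5 against 207 CPM.

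Fibroblasts led for Slit2 and Robo1, mesothelial cells for Slit3, and ECs for Robo2 and Robo4. Slit2 was the fibroblast ligand at 309.5 CPM (289.9 to 330.1) in control nuclei and 283 CPM (263 to 305) in PD-1 inhibitor nuclei, and mural cells, the next type, had 44.0 and 27.8 CPM. The Rgs17 cluster of fibroblasts was at 372 CPM (345 to 399.6) and 379.8 CPM (347 to 414) and the Cilp cluster at 203 CPM (174 to 235) and 192 CPM (166 to 222). Slit3 was highest in mesothelial cells at 705 CPM (647 to 766) in control nuclei and 840.3 CPM (785 to 898) in PD-1 inhibitor nuclei, with fibroblasts at 395 and 314 CPM, and smooth muscle reached 726 CPM (595 to 879) and 583 CPM (433 to 769). Slit2 was thus carried mostly by 1 stromal type and Slit3 by several, among them mesothelial cells, smooth muscle and fibroblasts. A small atrial cluster of cardiomyocytes also had Slit3, at 464 CPM (308 to 671) and 199 CPM (116 to 318), from 28 and 17 UMIs. Robo1, a Slit receptor, was at 179 CPM (164 to 195) in control nuclei and 155 CPM (139.5 to 171) in PD-1 inhibitor nuclei in fibroblasts and 132 and 116 CPM in mural cells. Valve interstitial cells, a small fibroblast cluster, stood out at 582 CPM (468 to 715) and 451 CPM (357 to 562), against 158 CPM (141 to 177) and 121 CPM (103 to 141) in the Rgs17 cluster. Fibroblasts therefore held both a Slit and a Robo. Robo4, the endothelial Robo, was at 117 CPM (105 to 129.8) in control nuclei and 91.1 CPM (80.4 to 103) in PD-1 inhibitor nuclei in ECs. Capillary ECs were at 217 CPM (188 to 248) and 194 CPM (162 to 231) and endocardial ECs at 51.2 and 55.0 CPM. Lymphatic ECs, at 195 CPM (146 to 256) and 129 CPM (85.3 to 188), overlapped capillary ECs in both libraries. Robo2 was at 78.0 and 30.3 CPM in ECs and 31.5 and 26.6 CPM in fibroblasts, and its EC signal came from the capillary cluster, which held 201 of the 231 control UMIs and 80 of the 87 PD-1 inhibitor UMIs.

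**Figure D3:**
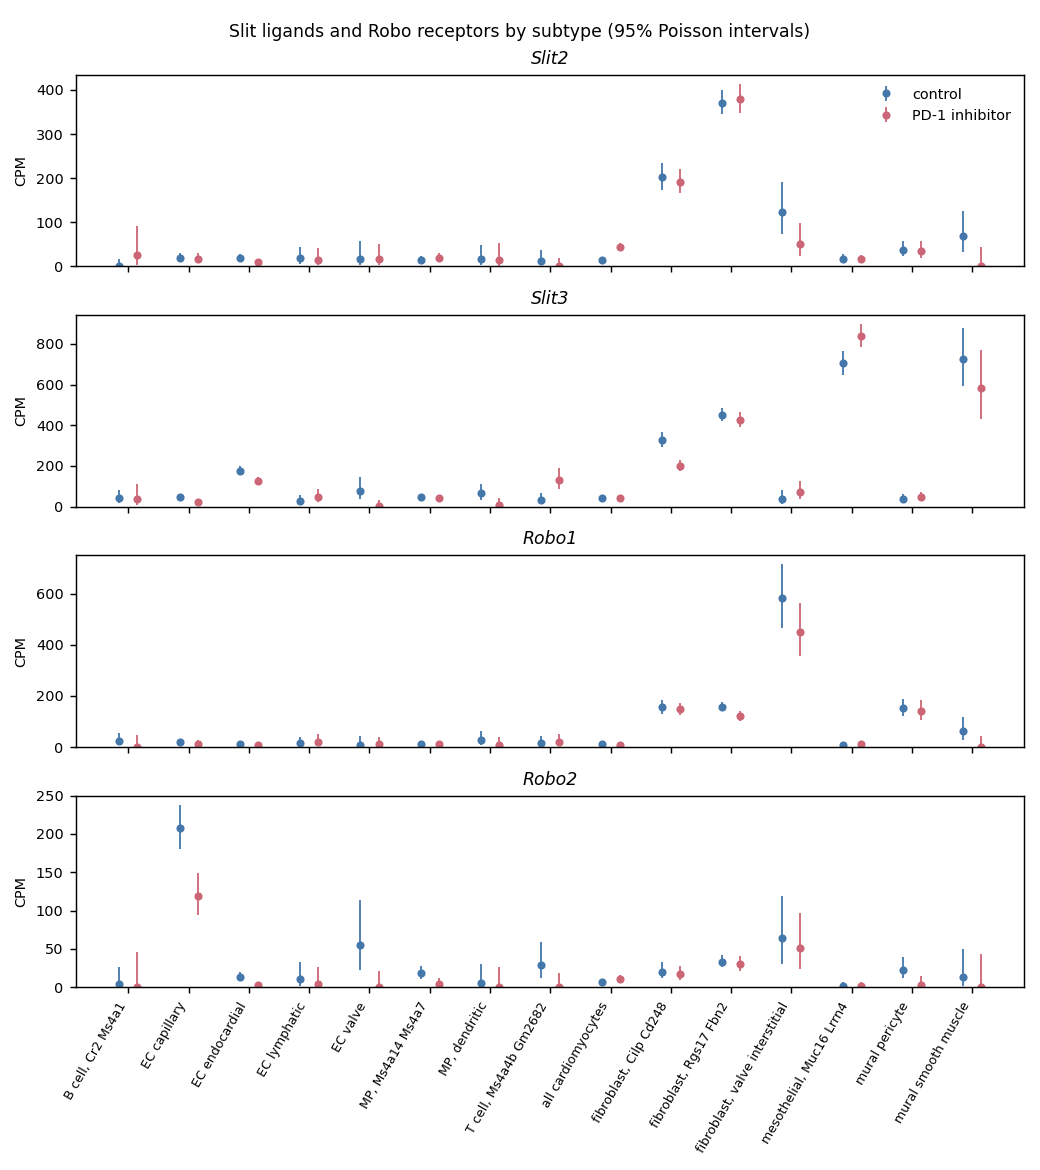
Slit2, Slit3, Robo1 and Robo2 levels (CPM, vertical axis, linear from 0) by cluster, control in blue and PD-1 inhibitor in red, with 95% Poisson intervals. Arterial EC, adipocyte and glial clusters are left out because their UMI totals were small, and cardiomyocytes are shown as 1 group. Slit2 is high in fibroblasts, Slit3 in mesothelial and smooth muscle cells, Robo1 in valve interstitial cells at 582 and 451 CPM, and Robo2 in capillary ECs.

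Ephrins are the cell-bound ligands of Eph receptors. Efnb2, the arterial ephrin, was at 302 CPM (283 to 323) in control nuclei and 317 CPM (297 to 338) in PD-1 inhibitor nuclei in ECs, and its receptor Ephb4 at 331 CPM (311 to 353) in control nuclei and 341 CPM (319.5 to 363) in PD-1 inhibitor nuclei. Endocardial and arterial ECs did not separate for either gene, since Efnb2 was at 376 and 377 CPM in endocardial and 342 and 272 CPM in arterial ECs, and Ephb4 at 368 and 355 CPM and 224 and 285 CPM in the same clusters. Capillary ECs had less Efnb2, 174 CPM (149 to 203) and 155 CPM (127 to 188). Efnb1, a ligand of several EphB receptors, was led by mesothelial cells at 108 CPM (86.4 to 134) and 129 CPM (108 to 153). Capillary ECs had 88.7 CPM (71.0 to 110) and 85.1 CPM (64.5 to 110), intervals that overlapped the mesothelial ones in both libraries. Efnb3 was a low cardiomyocyte gene with 55 and 65 UMIs. Efna5 was at 757 CPM (697 to 820.3) in control nuclei and 731 CPM (680.3 to 785) in PD-1 inhibitor nuclei in mesothelial cells and 623 CPM (544 to 710.2) and 357 CPM (218 to 551) in adipocytes, of which the PD-1 inhibitor library had 16 nuclei. It was also high in arterial ECs (552 CPM (398 to 747) and 733 CPM (551 to 957)) and smooth muscle (555 CPM (441 to 689.9) and 327 CPM (217 to 472)). Efna1, an ephrin-A known from endothelium, was at 115 CPM (103 to 128) in control nuclei and 105 CPM (93.5 to 118) in PD-1 inhibitor nuclei in ECs, and Efna2 was sparse with 14 and 26 UMIs in mesothelial cells.

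Among Eph receptors, Epha7 marked endocardial ECs at 422 CPM (390.1 to 456) in control nuclei and 493 CPM (460.5 to 527) in PD-1 inhibitor nuclei, with 19.6 and 13.4 CPM in capillary ECs and 252 and 263 CPM in valve interstitial cells. Epha4, a receptor that binds both ephrin classes, was the cardiomyocyte receptor at 209 CPM (191 to 228) in control nuclei and 154 CPM (137 to 172) in PD-1 inhibitor nuclei, and ECs had 141 and 119 CPM. The small atrial cluster, with 41 and 48 nuclei, had 597 CPM (418 to 826) and 304 CPM (199 to 446). Epha2 was alike in mesothelial cells (52.2 and 54.0 CPM) and ECs (49.6 and 47.6 CPM). Epha3 was in fibroblasts at 20.4 and 31.8 CPM, with 84.0 CPM (44.8 to 144) and 148 CPM (96.9 to 217) in valve interstitial cells. Ephb1 was at 72.5 and 88.7 CPM in mesothelial cells and 109 CPM (72.9 to 156) and 201 CPM (145 to 272) in lymphatic ECs, and Ephb6, an Eph receptor without kinase activity, was mesothelial at 91.6 CPM (71.7 to 115) and 111 CPM (91.5 to 133). Ephb3, with 49 and 28 UMIs in fibroblasts, and Epha6 had fewer than 100 UMIs in every type.

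Netrin 1, a secreted cue that attracts or repels by receptor, was at 261 CPM (243 to 279.7) in control nuclei and 279.6 CPM (261 to 299.7) in PD-1 inhibitor nuclei in ECs and 197 and 189 CPM in fibroblasts. Lymphatic ECs were at 789 CPM (685 to 903) and 906 CPM (781 to 1045) and capillary ECs at 82.5 and 91.1 CPM. Netrin 4, a basement membrane protein, was at 219.9 CPM (186 to 258) in control nuclei and 231 CPM (189.6 to 279) in PD-1 inhibitor nuclei in mural cells. Within ECs it was highest in the valve cluster at 441 CPM (333 to 572) and 431 CPM (339.8 to 539.8), against 21.7 and 16.4 CPM in capillary ECs. Endocardial ECs, at 116 and 140 CPM, held 177 and 245 of the 273 and 340 EC UMIs. Of the 3 Unc5 receptors with at least 100 UMIs, mural cells led for 2. Unc5c was at 116 CPM (91.7 to 144) and 160.5 CPM (126 to 201) in mural cells, carried there by smooth muscle at 541 CPM (429 to 675) and 863 CPM (678 to 1084), and valve interstitial cells had 259 CPM (185 to 352) and 405 CPM (316 to 511). Unc5b, the vascular netrin receptor, was at 106 and 118 CPM in mural cells and 53.7 and 57.4 CPM in ECs, with 239 and 188 CPM in valve interstitial cells. Unc5a was low, with 78 and 82 UMIs over all nuclei. Of the other netrin receptors, Dcc had 50 and 27 UMIs over all nuclei, whereas neogenin (Neo1) was at 529 and 522 CPM in mesothelial cells and 269.6 and 202 CPM in cardiomyocytes.

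The PD-1 inhibitor library was compared with the control library in the 6 types with the most nuclei, over genes with at least 100 UMIs in the type in both libraries together. Differences are log2 ratios of CPM with control in the denominator and 0.5 UMI added to every sum, with an exact 95% interval from the binomial distribution that covers counting error only. A fold of 1.5 (log2 of 0.58) in either direction was used to count members. In ECs, 0 of 33 members were higher and 1 was lower past that fold, where 4.3% of all 8955 genes were higher and 3.33% lower. In fibroblasts, 1 of 27 was higher and 0 lower, against 3.87% and 2.72% of all genes. In cardiomyocytes, 2 of 20 were higher and 2 lower, against 6.11% and 6.71%. In MPs 0 of 8 members passed in either direction (all genes 4.81% and 4.74%), in mural cells 0 of 8 (4.9% and 5.28%) and in mesothelial cells 0 of 18 (3.25% and 3.1%). With at most 2 members past the fold in a direction, these counts do not set the families apart from other genes.

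The median log2 ratio of the members was -0.13 in ECs (all genes 0.00), 0.02 in fibroblasts (-0.01), -0.15 in cardiomyocytes (-0.02), -0.07 in MPs (-0.05), 0.00 in mural cells (-0.04) and 0.14 in mesothelial cells (0.01). Guidance genes are long, and gene span moved with the ratio over all genes. When all genes were cut into 5 span groups, the group with the longest spans had a median of -0.14 in ECs, -0.15 in fibroblasts and -0.23 in cardiomyocytes, and the shortest group 0.30, 0.25 and 0.36. In ECs 19 of the 33 members were in the longest group, with a median of -0.13, and the part of gene span in single members' ratios was not tested. In mesothelial cells the longest group was at 0.00 and its 12 members at 0.20.

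**Figure D4:**
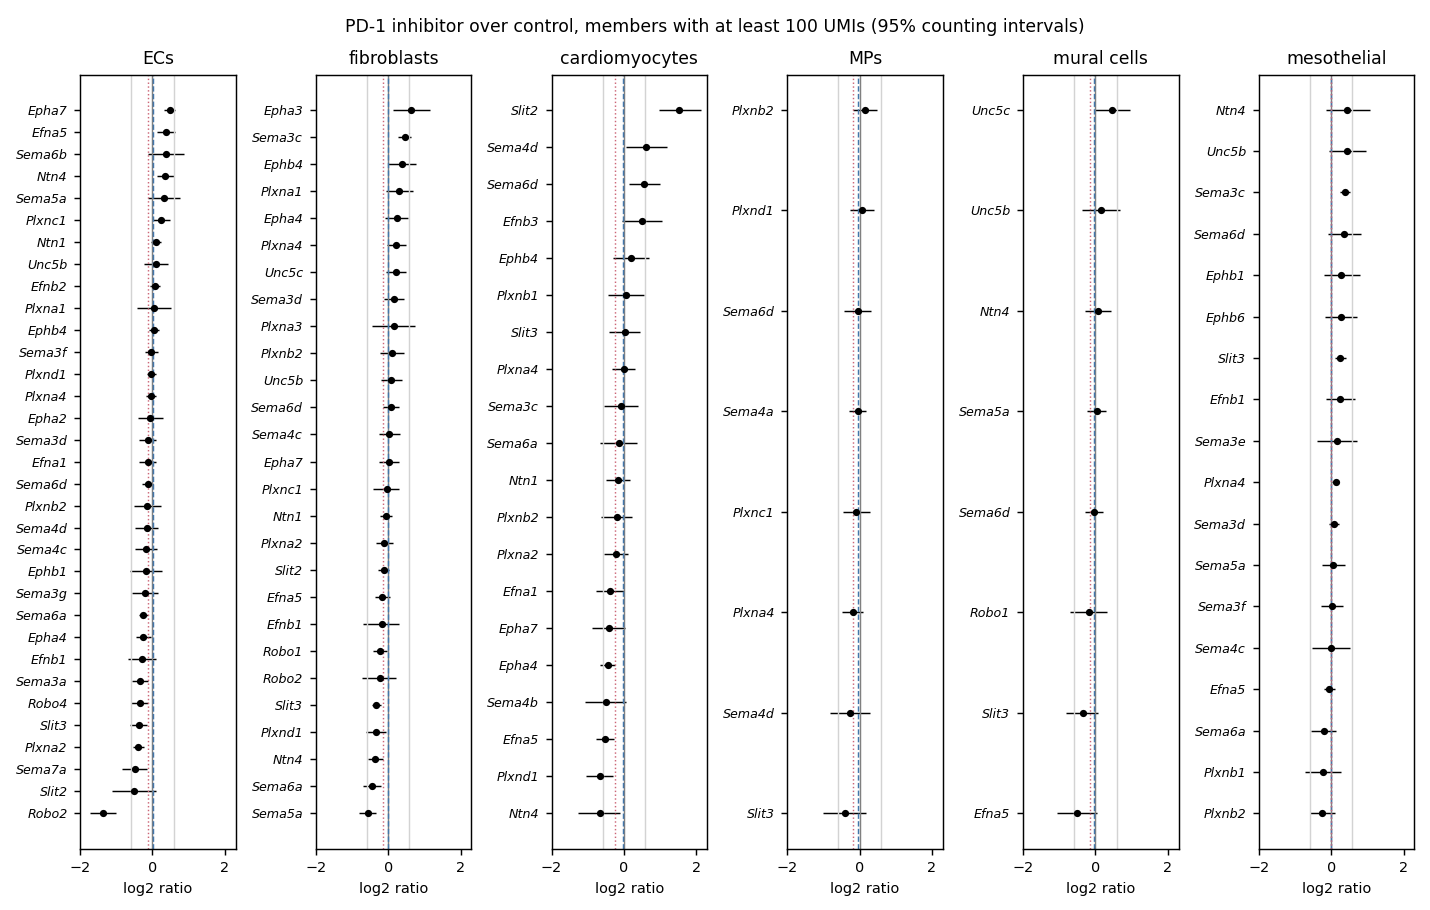
Log2 ratio (PD-1 inhibitor over control, horizontal axis) of each member with at least 100 UMIs in 6 cell types, with 95% counting intervals. Grey lines mark 1.5-fold, the blue dashed line the median of all genes and the red dotted line the median of the longest of 5 span groups. Robo2 in ECs at -1.36 and Slit2 in cardiomyocytes at 1.53 lie furthest from 0.

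**Figure D5:**
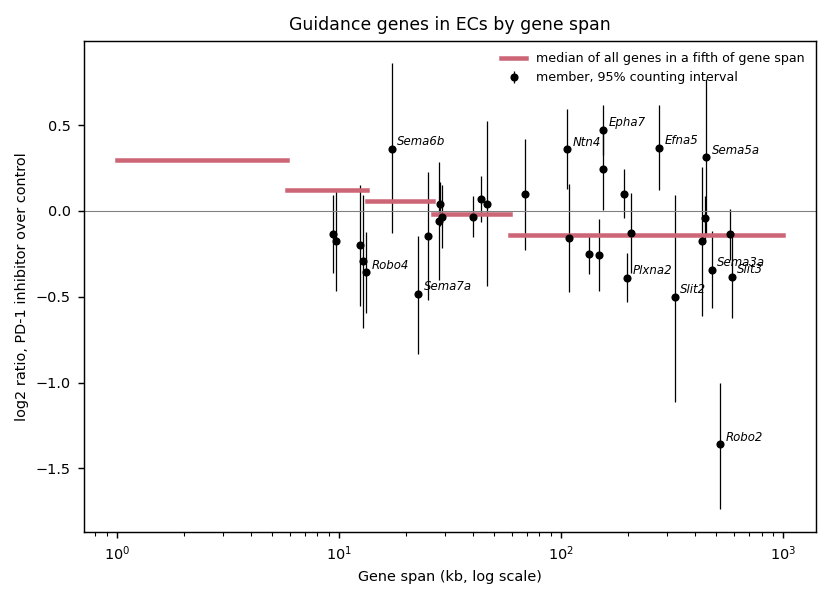
Log2 ratio in ECs (vertical axis) against gene span in kb (horizontal axis, log scale) for the 33 members with at least 100 UMIs, with 95% counting intervals, and red bars for the median of all genes in each of 5 span groups. The bars step down from 0.30 in the shortest to -0.14 in the longest group, and Robo2 at -1.36 is far below its group.

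Robo2 was the EC member past the fold. It had 231 UMIs in the control ECs and 87 in the PD-1 inhibitor ECs, which gave 78.0 CPM (68.3 to 88.7) and 30.3 CPM (24.2 to 37.3). The log2 ratio was -1.36 (-1.74 to -1.0). Within capillary ECs the counts were 201 and 80 UMIs and the log2 ratio was -0.79 (-1.19 to -0.41), and with the EC clusters in the same mix in both libraries the EC ratio was -0.95. The capillary cluster held 1024 of the control ECs and 715 of the PD-1 inhibitor ECs, so part of the EC ratio moved with this share. Robo2 UMIs were found in 125 of 2802 control and 48 of 2499 PD-1 inhibitor ECs, 4.46% (3.73 to 5.29, Clopper-Pearson) and 1.92% (1.42 to 2.54). Without the 5 nuclei richest in it, 197 and 57 UMIs were left. Lower counts were also seen in endocardial ECs (20 and 6 UMIs), MPs (22 and 4 UMIs) and mural cells (14 and 1 UMIs). Cardiomyocytes went the other way with 17 and 21 UMIs, at 0.55 (-0.43 to 1.57), an interval that held 0. Fibroblasts, with 94 and 66 UMIs, had a log2 ratio of -0.24 (-0.72 to 0.23). Robo2 (annotated at chr16:73891839-74411825, minus strand) spans 520 kb. T cell markers summed to 57.4 CPM in control ECs and 26.8 CPM in PD-1 inhibitor ECs and were higher in 3 of 13, with none at 0, while fibroblast markers were at 3066 and 4169 CPM and higher in 11 of 15. Markers of the other types in ECs moved both ways. Those of cardiomyocytes (3092 and 3159 CPM), MPs (469 and 500 CPM), mesothelial cells (480 and 537 CPM) and glial cells (43.6 and 44.2 CPM) were higher in sum. Those of mural cells (430 and 364.5 CPM), B cells (1229 and 1085.5 CPM) and adipocytes (305 and 186 CPM) were lower. The part of any of these in the Robo2 ratio was not tested.

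Other EC members moved less. Epha7, at 229 and 318 CPM, had 0.47 (0.33 to 0.62), and within endocardial ECs, where most of its UMIs lay, 0.22 (0.07 to 0.37). Efna5, with 83.7 and 108 CPM, had 0.37 (0.12 to 0.62). Sema6b, with 64 and 80 UMIs, had 0.36 (-0.13 to 0.86), an interval that held 0. Plxna2 and Sema6a, the EC plexin and the semaphorin it binds, were both lower, by log2 ratios of -0.39 (-0.53 to -0.25) and -0.25 (-0.37 to -0.13). In capillary ECs Plxna2 had -0.40 (-0.63 to -0.19) and Sema6a -0.01 (-0.20 to 0.18), so the Sema6a ratio of the type was not seen in this cluster. Sema7a had -0.48 (-0.83 to -0.14) over ECs and -0.06 (-0.44 to 0.31) in the capillary cluster that carries it, and -0.08 with clusters in the same mix. Robo4 had -0.36 (-0.60 to -0.12) and -0.16 (-0.49 to 0.16) in the same places. Slit2 was low in ECs, 60 and 41 UMIs, with -0.50 (-1.12 to 0.09). The arterial and venous pair was near 0 in ECs, at 0.07 (-0.06 to 0.20) for Efnb2 and 0.04 (-0.09 to 0.17) for Ephb4, intervals that do not reach 1.5-fold.

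In fibroblasts, Epha3 was past the fold with 61 and 79 UMIs, 20.4 and 31.8 CPM and 0.64 (0.14 to 1.15). Valve interstitial cells held 13 and 26 UMIs of these, and 17 and 26 UMIs were in the 5 richest nuclei of each library. Thinned to 500 UMIs per nucleus the ratio was 0.15, short of the fold. Sema3c had 482 and 552 UMIs, 161 and 222 CPM, and 0.46 (0.28 to 0.64). The Cilp cluster, where it was highest, made up 634 of the control and 676 of the PD-1 inhibitor fibroblasts, and within that cluster the ratio was 0.32 (0.09 to 0.54). With clusters in the same mix it was 0.26 and with nuclei thinned to 500 UMIs each it was 0.15. Ephb4 had 0.38 (-0.01 to 0.77). The 3 lowest were Sema5a at 149 and 99.9 CPM with -0.57 (-0.80 to -0.35), Sema6a with -0.45 (-0.69 to -0.20) and Ntn4 with -0.36 (-0.56 to -0.16). For Ntn4 the Rgs17 cluster had -0.78 (-1.11 to -0.46) and the Cilp cluster -0.18 (-0.47 to 0.11). For Slit3 it was the Cilp cluster that was lower, -0.70 (-0.97 to -0.44), against -0.08 (-0.23 to 0.08) in the Rgs17 cluster. The Slit3 intervals of these clusters did not meet and the Ntn4 intervals only just met, and the difference between clusters has no replicate check.

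In cardiomyocytes, Slit2 was at 15.1 CPM (10.7 to 20.9) and 43.9 CPM (35.3 to 54.0) with 37 and 90 UMIs. Its log2 ratio was 1.53 (0.97 to 2.13). Of the 90 PD-1 inhibitor UMIs, 43 were in 5 nuclei and 14 in 1 nucleus, and without the 5 richest nuclei of each library 26 and 47 UMIs were left. Thinned to 500 UMIs per nucleus the ratio was 0.23, and as a mean over nuclei 0.91. Slit2 is a fibroblast gene in these data, and the summed fibroblast markers in cardiomyocyte nuclei were at 1578 and 2398 CPM, higher for 13 of 15 markers, with 0 of them at 0 in either library. Their part in the Slit2 ratio was not tested. Plxnd1, an EC gene, had 174 and 92 UMIs and -0.66 (-1.05 to -0.29), while EC markers in these nuclei were at 716 and 970 CPM, higher for 12 of 14. Ntn4 had 78 and 41 UMIs and -0.67 (-1.26 to -0.11), and Sema4d 48 and 62 UMIs and 0.62 (0.06 to 1.20). Sema6d, with 84 and 104 UMIs, had 0.56 (0.13 to 0.99), and Efna5, with 343 and 200 UMIs, had -0.52 (-0.78 to -0.27). Of the 2 members with at least 100 UMIs here that cardiomyocytes led, Efnb3 was at 0.49 (-0.04 to 1.04) and Epha4 at -0.44 (-0.65 to -0.24) over the type and at -0.30 with clusters in the same mix.

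In mesothelial cells 13 of 18 ratios were above 0, and 3 had an interval above 0. The shares of all genes with a ratio or an interval above 0 were not counted, so these counts do not set the members apart. Sema3c was at 827 CPM (765 to 893) and 1077 CPM (1015 to 1142), 0.38 (0.24 to 0.52), Slit3 at 705 CPM (647 to 766) and 840.3 CPM (785 to 898), 0.25 (0.10 to 0.41), and Plxna4 at 0.12 (0.02 to 0.23). Ntn4 (0.45 (-0.13 to 1.07)) and Unc5b (0.45 (-0.05 to 0.97)) had the highest ratios, with intervals that held 0, and Plxnb2 (-0.24 (-0.57 to 0.10)), Plxnb1 (-0.23 (-0.74 to 0.27)) and Sema6a (-0.21 (-0.55 to 0.14)) the lowest. The median depth of mesothelial nuclei was 1297.5 UMIs in the control and 1724 in the PD-1 inhibitor library. Over all kept nuclei Sema3c had a log2 ratio of 0.68 (0.57 to 0.78) and Ephb6 of 0.79 (0.44 to 1.16), the 2 members higher past the fold (3.66% of all 12967 genes), and Robo2 was the 1 member lower (-0.90 (-1.16 to -0.64); 3.59% of all genes). Mesothelial nuclei were 478 of the 9522 control and 462 of the 7644 PD-1 inhibitor nuclei, and in mesothelial nuclei alone Ephb6 was at 0.27 (-0.16 to 0.72).

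In MPs the 3 highest ratios were Plxnb2 (0.14 (-0.20 to 0.47)), Plxnd1 (0.06 (-0.28 to 0.39)) and Sema6d (-0.05 (-0.43 to 0.32)), and the 3 lowest Slit3 (-0.40 (-1.03 to 0.18)), Sema4d (-0.25 (-0.83 to 0.29)) and Plxna4 (-0.19 (-0.48 to 0.10)). In mural cells the highest were Unc5c (0.47 (-0.00 to 0.94)), Unc5b (0.16 (-0.38 to 0.68)) and Ntn4 (0.07 (-0.30 to 0.44)), and the lowest Efna5 (-0.50 (-1.06 to 0.04)), Slit3 (-0.35 (-0.80 to 0.08)) and Robo1 (-0.19 (-0.71 to 0.31)). In both types 0 of the 8 members had an interval clear of 0, and the share of all genes with such an interval was not counted. The level of Unc5c in smooth muscle was 541 CPM (429 to 675) and 863 CPM (678 to 1084), from 79 and 74 UMIs in 104 and 54 nuclei.

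Of 36 other genes of these pathways (among them neuropilins, Dcc, neogenin, repulsive guidance molecules, srGAPs, Micals and collapsin response mediators), 28 had at least 100 UMIs in ECs, where 2 were higher and 2 lower past 1.5-fold (all genes 4.3% and 3.33%), with a median log2 ratio of -0.21. In fibroblasts 0 of 28 were higher and 1 lower (all genes 3.87% and 2.72%), with a median of -0.04. In cardiomyocytes 0 of 21 passed in either direction (all genes 6.11% and 6.71%), with a median of -0.27. In MPs 0 of 16 passed (all genes 4.81% and 4.74%), with a median of -0.12. In mural cells 0 of 13 were higher and 2 lower (all genes 4.9% and 5.28%), with a median of -0.14. In mesothelial cells 0 of 19 passed (all genes 3.25% and 3.1%), with a median of -0.05. Most of these genes are long too, 22 of 28 in ECs and 13 of 13 in mural cells being in the group with the longest spans, for which all genes had a median of -0.14 in both types. The median of all genes in that group was -0.15 in fibroblasts, -0.23 in cardiomyocytes, -0.18 in MPs and 0.00 in mesothelial cells.

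Members share sequence features with other genes that can affect their counts. The gene bodies of 23 members overlap another annotated gene, and the strand used for counting is not given in the sources used here. The overlapping genes of most had few UMIs, but for Epha1 they had 3183, for Ntn3 570, for Unc5a 300 and for Sema4c 128, so reads of these members and their neighbours may not be told apart.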

How the data were processed

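Nuclear RNA of mouse hearts was sequenced in 1 control and 1 PD-1 inhibitor library with the GEXSCOPE single nucleus kit. The authors deposited, per the labels and the values, UMI counts for every gene and barcode, as whole numbers and not normalized, and 500 was the fewest UMIs of a barcode. The submitters' processing notes name GRCm38 and mm10. The aligner, counter, annotation, strand and barcode calling are not given in the sources used here.

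Nuclei with over 20% mitochondrial UMIs (83 control, 15 PD-1 inhibitor) or under 200 genes (0 in each) were removed, then 592 and 308 doublets called with Scrublet (scanpy 1.11.5). Each nucleus was scaled to 10000 UMIs before the log. From 2000 variable genes without the members, 30 principal components and 15 neighbours were clustered by Leiden at resolution 1. Markers named 20 of 21 clusters. A marker counted as detected with a UMI in at least 5% of a cluster's nuclei and over 2 times the CPM of other nuclei, at least 3 were needed, and a cluster with a Mki67 or Top2a UMI in at least 50% of nuclei stayed unnamed (30 control and 13 PD-1 inhibitor nuclei). UMIs were summed by type or cluster and library. With 1 library per group no test or p-value was made. Poisson, binomial and Clopper-Pearson intervals are exact at 95% and cover counting error only. The Poisson and binomial ones were run on simulated Poisson counts, the model they assume. That run cannot show how they hold for UMIs gathered in few nuclei. Coordinates and gene spans are from GENCODE M21 on GRCm38, matched by Ensembl gene identifier for all 66 members. Named with values were members with at least 100 UMIs in a type, and the 3 highest and 3 lowest ratios in 6 types. A few genes outside this rule are named by their UMI count. The members, lists and tests were chosen with earlier results of these data known. The closing text gives the effect of 13 alternatives.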

Additional observations from a re-analysis of the deposited data

Results flagged for a closer look

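Ntn4 had intervals on opposite sides of 0 in different cell types. Its log2 ratio, PD-1 inhibitor over control, was 0.36 in ECs, -0.36 in fibroblasts and -0.67 in cardiomyocytes. With clusters in the same mix the EC value was 0.12 and the fibroblast value -0.46, and thinned to 500 UMIs per nucleus the cardiomyocyte value was -0.13. Slit3 was at 0.25 in mesothelial cells, -0.38 in ECs and -0.33 in fibroblasts. Efna5 was at 0.37 in ECs and -0.52 in cardiomyocytes. With 1 library per group the differences between cell types were not tested.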

How the results depend on the processing

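Over 13 alternatives, 0 of the ratios whose interval lay clear of 0 changed sign. Ratios whose interval held 0 did so, as Unc5c in mural cells (0.47, and -0.06 when thinned), Plxnb1 and Plxnb2 in mesothelial cells (-0.23 and -0.24, and 0.38 and 0.20 when thinned) and Plxnb2 in MPs (0.14, and -0.12 when thinned). Thinning took 23 of 114 single ratios outside their reported interval, the same mix of clusters 6, centring by span 5, the mean over nuclei 4 and the 5% mitochondrial limit 1 of 106. The median log2 ratio of members stayed within the interval of the reported one in all 6 types. The count of members with the same leading type stayed within 1.5 times of 44 wherever it was made, and it was not made when ratios were centred. Counts of members past 1.5-fold are small and moved by 1 to 3 members. The reported counts were 1 in ECs, 1 in fibroblasts, 4 in cardiomyocytes and 0 in MPs, mural and mesothelial cells. With doublets kept, MPs and mesothelial cells had 1 each. With members kept among the variable genes, fibroblasts had 2. At no more than 5% mitochondrial UMIs, cardiomyocytes had 1. Thinned to 500 UMIs per nucleus, mural and mesothelial cells had 2 each. With clusters in the same mix, mural cells had 1, and as a mean over nuclei mural and mesothelial cells had 1 each. With a minimum of 50 UMIs, fibroblasts had 3, MPs 1 and mesothelial cells 2, and with 200 UMIs fibroblasts had 0 and cardiomyocytes 1. Centred on genes of the same span group, ECs had 2, fibroblasts 2 and mural cells 1. The cause was not tested. Of single genes, Robo2 in ECs ranged from -1.38 to -0.95, Epha3 in fibroblasts from 0.15 to 0.79 and Slit2 in cardiomyocytes from 0.23 to 1.76. Leaving out a library was not possible. No paired analysis was possible because each group had 1 library. Depth limits members with few UMIs, whose intervals are wide, and low levels outside a gene's leading type, since the part of free RNA in them was not tested.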

Other observations

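Glial nuclei (32 control and 10 PD-1 inhibitor, led by Kcna1, Gfra3 and Slc35f1) were too few for the order of cell types but held several members. Sema3b was at 304 CPM (152 to 544) and 422 CPM (155 to 918), from 11 and 6 UMIs, and Sema3e at 249 CPM (114 to 472) and 492 CPM (198 to 1014), from 9 and 7 UMIs, both above the other types in both libraries. Plxnb3, a plexin known from glia, had 10 of its 28 control UMIs there and 0 of its 16 PD-1 inhibitor UMIs, and the exact interval of this 0 reaches 259 CPM. Sema3c had 18 and 3 UMIs and Robo2 9 and 0 UMIs. T cells had 8 and 26 UMIs of Slit3, 33.1 CPM (14.3 to 65.3) and 129 CPM (84.6 to 189.7), intervals that did not meet. These genes were picked after their values were seen.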
